A study of Homo sapiens with 15 samples.

Results

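The epithelial miRNAs examined here were the 5 members of the miR-200 family (hsa-miR-200a-3p, hsa-miR-200b-3p, hsa-miR-200c-3p, hsa-miR-141-3p and hsa-miR-429), hsa-miR-203a-3p and hsa-miR-205-5p, a list of 7 mature miRNAs drawn up by name. Of these, 6 were among the 1707 mature miRNAs in the count files, and miR-203a-3p was not analysed here. All 6 were among the 562 miRNAs that passed the filter on low counts (filterByExpr of edgeR) and were tested. They were followed across 15 miRNA-Seq libraries of U87-MG cells, an established human glioblastoma line, in order to set differences between the 5 groups beside differences between libraries of a group.

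Control cells, with neither gene disrupted, were kept for 24 h in 21% O2 (normoxic control) or in 1% O2 (hypoxic control). CRISPR/Cas9 guides carried by a lentiviral vector had disrupted HIF1α in HIF1α-KO cells, HIF2α in HIF2α-KO cells and both in HIF1α/HIF2α-KO cells, all of which were kept for 24 h in 1% O2 only. Each group had 3 libraries. The sources used here do not say whether a knockout was 1 clone or a mixed population, or whether the 3 libraries came from separate cultures, so that p-values measure only the spread between these libraries. Total counts ranged from 10360337 to 22496373 per library, and the detection floor, set at 3 counts, was no higher than 0.290 CPM (counts scaled by library size). The mRNAs of the disrupted genes were not measured. The sum of 7 neural and glial miRNAs was between 4083 and 11824 CPM in every library. Of these 7, only 4 passed the filter on low counts, and miR-219a-2-3p was at 3 counts or fewer in every library.

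The miR-200 family is a set of small RNAs made in quantity by epithelial cells. They repress ZEB1 and ZEB2, transcription factors that shut off E-cadherin, and the ZEB proteins in turn repress both miR-200 loci, a mutual repression that is a textbook switch between epithelial and mesenchymal states. miR-205-5p also targets the ZEB mRNAs and is best known from stratified and glandular epithelia, while cells of mesenchymal or glial character normally hold little of either.

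The mature sequences are shown because the seed, bases 2 to 8 from the 5′ end, decides which mRNAs a miRNA pairs with, and because close relatives must be told apart by a few bases when reads are counted. They were taken from RefSeq (GRCh38.p14), and capitals mark the seed.

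hsa-miR-200b-3p: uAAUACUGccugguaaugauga
hsa-miR-200c-3p: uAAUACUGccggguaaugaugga
hsa-miR-429: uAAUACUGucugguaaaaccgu
hsa-miR-200a-3p: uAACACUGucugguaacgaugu
hsa-miR-141-3p: uAACACUGucugguaaagaugg
hsa-miR-205-5p: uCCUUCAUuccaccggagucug

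The first seed, AAUACUG, was carried by miR-200b-3p, miR-200c-3p and miR-429, and by no other of the 2370 human mature miRNAs in the RefSeq table. The seed of miR-200a-3p and miR-141-3p, AACACUG, was carried by these 2 only, and that of miR-205-5p, CCUUCAU, by miR-205-5p only. With positions counted from 1 at the 5′ end and the base of the first-named miRNA given first, miR-200a-3p and miR-141-3p differed by C17A and U22G, and miR-200b-3p and miR-200c-3p by U11G and A22G, besides 1 more base at the 3′ end of miR-200c-3p. The counting of such near-identical reads is not described in the sources used here.

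The shared seeds cut across the genes. On GRCh38, MIR200B (chr1:1167104-1167198), MIR200A (chr1:1167863-1167952) and MIR429 (chr1:1169005-1169087) lay in 1 cluster, with 664 and 1052 bases between neighbours, inside the RefSeq gene MIR200BHG. MIR200C (chr12:6963699-6963766) and MIR141 (chr12:6964097-6964191) were 330 bases apart inside an intron of MIR200CHG. MIR205 (chr1:209432133-209432242) lay within the span of MIR205HG, in no exon of its GENCODE v29 transcripts and inside an intron of 1 of the 10. The build used for counting is not given in the sources used here, and these positions are those of the reference.

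The 6 miRNAs behaved in 2 ways. miR-200c-3p was the most abundant and the steadiest, at 30.4 to 57.6 CPM over the 15 libraries, and its lowest levels were those of HIF1α/HIF2α-KO and HIF1α-KO cells. The levels of miR-205-5p, miR-200a-3p, miR-141-3p, miR-200b-3p and miR-429 differed up to 25.6-fold among the 3 libraries of a group, and these differences were larger than those between groups. No member passed an adjusted p under 0.05 in any of the 5 comparisons or among the 5 groups in the main edgeR fit. That fit used the quasi-likelihood test with Benjamini-Hochberg adjustment over 562 miRNAs. Some alternative fits, given below, called members. Levels below are CPM scaled with TMM factors and are not divided by length, since mature miRNAs are of nearly the same length.

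miR-200c-3p, the family member with the AAUACUG seed from chromosome 12, was at 41.9, 50.2 and 42.8 CPM in replicates 1, 2 and 3 of the normoxic control. It was at 49.3, 52.4 and 41.8 CPM in the hypoxic control, and at 57.6, 46.3 and 43.5 CPM in HIF2α-KO cells. The ranges of these 3 groups overlapped. In HIF1α-KO cells it was at 36.3, 34.8 and 39.0 CPM, and in HIF1α/HIF2α-KO cells at 32.7, 35.7 and 30.4 CPM. Every library without HIF1α was thus below every library with it (30.4 to 39.0 CPM in 6 libraries against 41.8 to 57.6 CPM in 9), a split chosen after the values were seen. The same split, in the same direction, was found for 11 of the 562 miRNAs (1.96%). It depended on the scaling: in CPM of total counts, HIF1α-KO libraries reached 41.9 CPM and HIF2α-KO libraries went down to 39.1 CPM, and miR-200c-3p was not among the 2 miRNAs that kept the split.

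The group means of miR-200c-3p were 45.0 ± 4.55 CPM (SD, n = 3) in the normoxic control, 47.8 ± 5.45 in the hypoxic control, 36.7 ± 2.13 in HIF1α-KO, 49.2 ± 7.47 in HIF2α-KO and 32.9 ± 2.64 in HIF1α/HIF2α-KO cells. In the order of these means, the step from HIF1α-KO up to the normoxic control and the step from HIF1α/HIF2α-KO up to HIF1α-KO were larger than the larger of the 2 SDs, and the other neighbours were closer than that. Across all 6 miRNAs, these were the 2 such steps among 24 pairs of neighbours.

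Against the hypoxic control, the log2 fold change of miR-200c-3p in HIF1α/HIF2α-KO cells was -0.54 (SE 0.156, 95% interval -0.87 to -0.20), with an unadjusted p of 0.00408 and an adjusted p of 0.0534 in edgeR. In this comparison 5.87% of all miRNAs were called, and 0 of the 6 members, 1 of which had an unadjusted p under 0.05. The adjusted p was 0.0304 with limma on quantile-normalized values, 0.0266 with DESeq2 and 0.0486 with robust estimation of the spread in edgeR, and over all alternatives it ranged from 0.0266 to 0.459. Of all 562 miRNAs, limma called 34, DESeq2 60 and the robust spread 41. In edgeR the adjusted p was 0.102 with total counts and 0.459 with no filter, and no fit with a library left out gave a call. The call therefore rested on the test, scaling, filter and libraries chosen, while the size of the difference was between -0.64 and -0.44 throughout.

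For HIF1α-KO cells the log2 fold change of miR-200c-3p was -0.38 (SE 0.156, 95% interval -0.72 to -0.05; adjusted p = 0.314 in edgeR, where 1.25% of miRNAs were called). In HIF2α-KO cells it was 0.04 (SE 0.156, 95% interval -0.29 to 0.37; adjusted p = 0.948 in edgeR). No miRNA was called in this comparison by edgeR (0%), and 86 of 562 had an unadjusted p under 0.05, with no member among them. HIF2α-KO cells differed from HIF1α-KO cells by 0.42 (SE 0.156, 95% interval 0.09 to 0.76; adjusted p = 0.182 in edgeR, with 1.07% of miRNAs called). Between the hypoxic and the normoxic control its log2 fold change was 0.09 (SE 0.156, 95% interval -0.25 to 0.42; adjusted p = 0.861 in edgeR, with 0% called and 35 miRNAs at an unadjusted p under 0.05). Among the 5 groups at once, the adjusted p of miR-200c-3p was 0.0834 in edgeR and 0.0175 in DESeq2. Of the 562 miRNAs, edgeR called 35 (6.23%) and DESeq2 called 81.

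The ranges of miR-200c-3p did not overlap between the hypoxic control and HIF1α-KO cells, the hypoxic control and HIF1α/HIF2α-KO cells, or HIF1α-KO and HIF2α-KO cells, and no other member had ranges without overlap in these comparisons. In HIF2α-KO cells against the hypoxic control and in the hypoxic against the normoxic control, 0 of the 6 members were without overlap, beside 16.4% and 17.8% of all miRNAs. Such a lack of overlap was found for 21.5%, 30.4% and 20.5% of all 562 miRNAs, in the 3 comparisons named first. The two-sided exact permutation test gave p = 0.1 in each, the smallest that 3 libraries against 3 allow (adjusted p = 1 over 30 tests of members and comparisons). The comparisons with the hypoxic control share its 3 libraries.

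**Figure D1:**
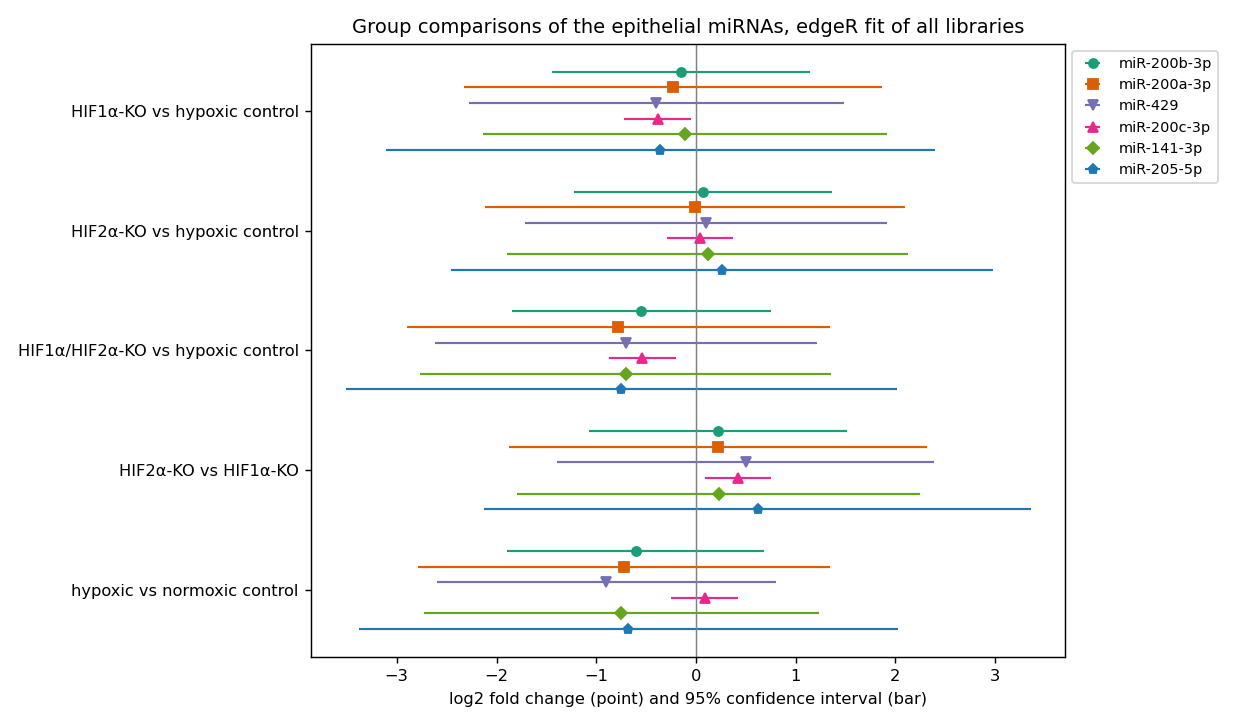
Log2 fold change of each epithelial miRNA in each comparison, as points with 95% confidence intervals from the edgeR fit of all 15 libraries. The intervals of miR-200c-3p were narrow and lay below 0 in HIF1α-KO (-0.72 to -0.05) and HIF1α/HIF2α-KO cells (-0.87 to -0.20), while those of the other 5 miRNAs crossed 0 in every comparison.

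miR-205-5p, an epithelial miRNA outside the family, showed the opposite behaviour. In the normoxic control it was at 6.58, 9.95 and 14.7 CPM. In the hypoxic control replicate 1 had 18.6 CPM and replicates 2 and 3 had 0.735 and 0.728 CPM, from 202, 17 and 10 counts. A single hypoxic control library thus held 25.6 times as much as another, and that library was above all 3 normoxic ones. HIF1α-KO cells had 1.47, 0.586 and 13.6 CPM, HIF2α-KO cells 13.1, 0.761 and 9.496 CPM, and HIF1α/HIF2α-KO cells 4.91, 5.83 and 0.820 CPM. Every hypoxic group held both high and low libraries, and the ranges overlapped in all 5 comparisons.

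The group means of miR-205-5p (± SD, n = 3) went from 3.86 ± 2.67 CPM for HIF1α/HIF2α-KO cells to 10.4 ± 4.08 CPM for the normoxic control, and the SD was larger than the mean in the hypoxic control (6.69 ± 10.3) and in HIF1α-KO cells (5.21 ± 7.26). In the 5 comparisons the log2 fold changes were between -0.75 and 0.62, with SEs of 1.26 to 1.29 and adjusted p-values of 0.794 to 0.990 in edgeR. The 95% interval for HIF1α/HIF2α-KO cells ran from -3.51 to 2.02, so that differences of several fold in either direction were not detectable with this spread. Without replicate 1 of the hypoxic control, the log2 fold change was 2.42 in HIF1α/HIF2α-KO, 2.82 in HIF1α-KO and 3.40 in HIF2α-KO cells (adjusted p of 0.315, 0.507 and 0.228 in edgeR).

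miR-200a-3p and miR-141-3p, which share the AACACUG seed but come from different chromosomes, followed miR-205-5p. miR-200a-3p was at 7.64, 9.25 and 15.6 CPM in the normoxic control and at 17.3, 1.47 and 1.38 CPM in the hypoxic control. Its levels were 4.40, 1.03 and 11.7 CPM in HIF1α-KO, 11.0, 1.52 and 7.03 CPM in HIF2α-KO and 4.09, 5.61 and 1.72 CPM in HIF1α/HIF2α-KO cells. The high libraries of each group were those with high miR-205-5p.

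miR-141-3p was at 4.47, 6.02 and 9.86 CPM in the normoxic control and at 10.3, 1.43 and 0.801 CPM in the hypoxic control. In HIF1α-KO cells it was at 2.77, 0.782 and 7.999 CPM, in HIF2α-KO cells at 7.36, 0.952 and 4.75 CPM, and in HIF1α/HIF2α-KO cells at 2.39, 3.94 and 1.07 CPM. Its ranges overlapped in all 5 comparisons. The ratio of miR-200a-3p to miR-141-3p counts stayed between 1.03 and 1.73 in the 15 libraries, whereas the ratio of miR-200c-3p to miR-141-3p, whose hairpins lie 330 bases apart, ran from 4.34 to 52.2.

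miR-200b-3p, with the seed of miR-200c-3p but from the chromosome 1 cluster, was at 10.6, 13.6 and 17.8 CPM in the normoxic control and at 20.2, 4.28 and 3.49 CPM in the hypoxic control. Its levels were 7.58, 5.47 and 12.0 CPM in HIF1α-KO, 13.6, 4.28 and 11.0 CPM in HIF2α-KO and 7.68, 7.65 and 3.52 CPM in HIF1α/HIF2α-KO cells. The same libraries were high as for miR-205-5p, over a narrower range (5.78-fold at most within a group). Its log2 fold change with both genes disrupted was -0.55 (SE 0.606, adjusted p = 0.650 in edgeR).

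miR-429, the third miRNA of the chromosome 1 cluster, was the rarest, with 1 to 25 counts per library. It was at 1.71, 1.47 and 1.61 CPM in the normoxic control and at 2.30, 0.259 and 0.291 CPM in the hypoxic control. HIF1α-KO cells had 0.815, 0.195 and 1.08 CPM, HIF2α-KO cells 1.02, 0.285 and 1.42 CPM, and HIF1α/HIF2α-KO cells 0.882, 0.530 and 0.0820 CPM, the last from 1 count. That library was below its floor of 3 counts (0.257 CPM), and the other low ones were at 3 to 6 counts, apart from replicate 1 of HIF1α-KO cells with 10.

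For all 6 members, miR-200c-3p included, the HIF1α/HIF2α-KO libraries were below all 3 normoxic control libraries, as at 0.820 to 5.83 against 6.58 to 14.7 CPM for miR-205-5p and at 30.4 to 35.7 against 41.9 to 50.2 CPM for miR-200c-3p. This was the case for 21.5% of all miRNAs. The HIF1α-KO libraries were all below the normoxic control for 2 members, miR-200c-3p and miR-429 (15.5% of all miRNAs), and the HIF2α-KO libraries for 1, miR-429 (9.07%). Genotype and oxygen differ together between these groups, which were not compared by a test.

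Over the 6 members, the median log2 fold change was -0.29 in HIF1α-KO, 0.09 in HIF2α-KO and -0.70 in HIF1α/HIF2α-KO cells against the hypoxic control, 0.32 for HIF2α-KO against HIF1α-KO, and -0.70 for the hypoxic against the normoxic control, beside medians of all 562 miRNAs of -0.05, -0.01, -0.02, 0.05 and 0.01. All 6 were below 0 in HIF1α-KO and in HIF1α/HIF2α-KO cells, but without replicate 1 of the hypoxic control all except miR-200c-3p were above 0 in both, at 1.12 to 2.82 and at 0.72 to 2.42. In the hypoxic against the normoxic control, leaving out the same library gave -3.83 for miR-205-5p, and leaving out replicate 2 gave -0.13. Of these members, 5 varied together from library to library, so that their signs are not independent of each other.

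The division into group and library effects was given by the share of the sum of squares of log2(CPM + 0.5) that lay between groups. It was 76.7% for miR-200c-3p, and 19.1% for miR-205-5p, 19.8% for miR-141-3p, 21.0% for miR-200a-3p, 26.5% for miR-200b-3p and 31.9% for miR-429. The median of all 562 miRNAs was 41.2% (quartiles 26.8% and 58.9%), and 28.6% of the degrees of freedom lay between groups. miR-200c-3p was above the upper quartile, though at 55.8% in CPM of total counts, and miR-205-5p, miR-141-3p, miR-200a-3p and miR-200b-3p were below the lower quartile.

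The within-group SD on the log2 scale was 1.69 for miR-205-5p, the 3rd highest of the 562 miRNAs, 1.28 for miR-200a-3p (10th), 1.18 for miR-141-3p (13th), 0.79 for miR-200b-3p (30th) and 0.69 for miR-429 (37th), against a median of 0.30. For miR-200c-3p it was 0.15, the 522nd. The biological coefficient of variation in the edgeR fit was 101.2% for miR-205-5p and 17.8% for miR-200c-3p, with a median of 22.1%. Without replicate 1 of the hypoxic control, the between-group share was 41.0% for miR-205-5p and 57.6% for miR-200b-3p.

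The libraries that were high in a group were the same for 5 members. Over the 15 libraries, the deviations from the group means (log2 scale) of miR-200a-3p, miR-200b-3p, miR-141-3p, miR-429 and miR-205-5p had Pearson's r of 0.88 to 0.99 in their 10 pairs (Spearman's rho 0.80 to 0.99). In the 5 pairs with miR-200c-3p, r was 0.25 to 0.50 (rho 0.24 to 0.54). These values are descriptions across libraries that share their depth and composition. miR-200c-3p thus stood apart both from miR-141-3p, its neighbour on chromosome 12, and from miR-200b-3p, its closest relative in sequence.

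The miRNAs most like the family mean in these deviations, by Pearson's r over the 15 libraries, were miR-199b-5p (r = 0.987), miR-199a-3p (0.977), miR-199b-3p (0.977), miR-148a-3p (0.977) and miR-126-3p (0.971). miR-199a-3p and miR-199b-3p have the same mature sequence, so that their reads cannot be told apart. They ran in parallel, at 13.6 to 143 and 6.79 to 71.7 CPM, and are not 2 separate likenesses. miR-126-3p is known from endothelial cells and the miR-199 miRNAs from fibroblasts and smooth muscle. Of the 562 miRNAs, 17 (3.02%) had an r over 0.9, with members and both miR-199a-3p and miR-199b-3p included, and the median was -0.07.

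The sum of both miR-126 arms divided the libraries at its widest gap on the log2 scale into 9 with more and 6 with less, a division made after the data were seen. The 9 comprised all 3 normoxic control libraries, replicate 1 of the hypoxic control, replicate 3 of HIF1α-KO, replicates 1 and 3 of HIF2α-KO and replicates 1 and 2 of HIF1α/HIF2α-KO cells. The normoxic control therefore had no library with less miR-126, and the 6 libraries with less included the 2 deepest (11534878 to 22496373 counts, against 10360337 to 16258777 in the 9).

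miR-205-5p was at 4.91 to 18.6 CPM in the 9 libraries with more miR-126 and at 0.586 to 1.47 CPM in the 6 with less, and miR-200b-3p at 7.65 to 20.2 against 3.49 to 7.58 CPM. All libraries with more were above all with less for these 2 members, as for 2.67% of all miRNAs. miR-200a-3p (4.09 to 17.3 against 1.03 to 4.40 CPM), miR-141-3p (2.39 to 10.3 against 0.782 to 2.77 CPM) and miR-429 (0.530 to 2.30 against 0.0820 to 0.815 CPM) overlapped through replicate 1 of HIF1α-KO cells, which was the highest of the 6. The medians differed 13.3-fold for miR-205-5p, 6.19-fold for miR-200a-3p, 5.96-fold for miR-141-3p, 5.23-fold for miR-429 and 2.79-fold for miR-200b-3p. For miR-200c-3p they differed 1.10-fold, with 32.7 to 57.6 against 30.4 to 52.4 CPM.

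Within each of the 4 hypoxic groups, the 5 covarying members were higher in every library with more miR-126 than in every library with less, as were 4.63% of all miRNAs. Since miR-126-3p was itself among the miRNAs most like the family mean within groups, this restates that likeness and is no separate evidence, and each group had only 1 library on one side of the division. The ratio of the means was 25.5 for miR-205-5p in the hypoxic control, 13.2 in HIF1α-KO, 14.8 in HIF2α-KO and 6.55 in HIF1α/HIF2α-KO cells. For miR-200b-3p it was 5.19, 1.83, 2.88 and 2.18 in the same order.

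**Figure D2:**
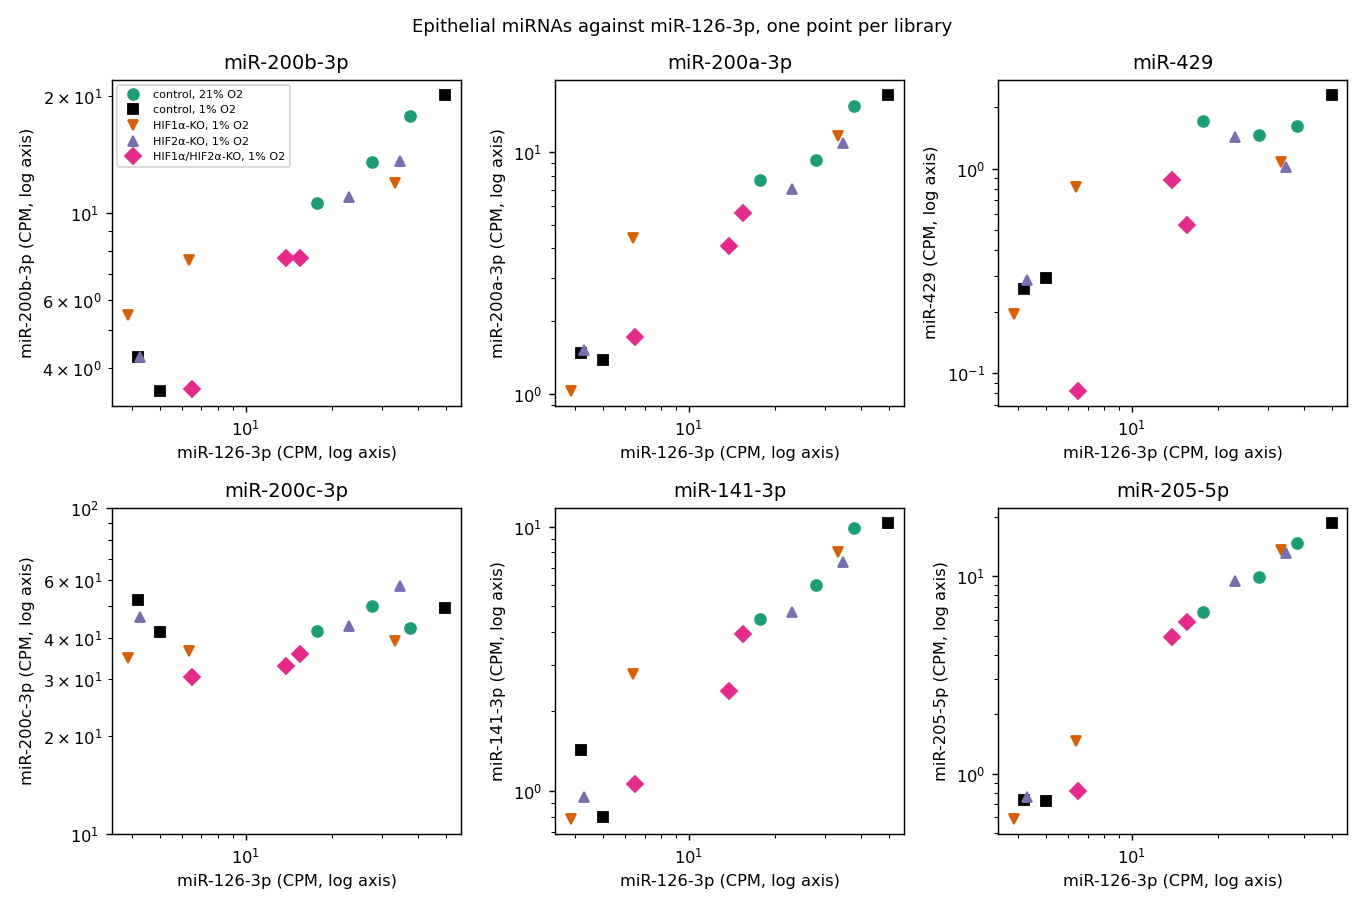
Level of each epithelial miRNA against miR-126-3p, both as CPM on log axes, with 1 point per library (n = 15) and a symbol per group. miR-205-5p, miR-200a-3p and miR-141-3p were higher where miR-126-3p was higher, whatever the group, and miR-200c-3p stayed between 30.4 and 57.6 CPM.

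miR-205-5p kept a nearly fixed ratio to miR-126-3p in the 9 libraries with more miR-126, at 0.356 to 0.413 counts of miR-205-5p per count of miR-126-3p, although miR-126-3p itself ran from 13.8 to 49.9 CPM there. In the 6 libraries with less, the ratio was lower, at 0.127 to 0.231. The ratio of miR-205-5p to miR-200a-3p was likewise 0.862 to 1.35 in the 9 and 0.333 to 0.571 in the 6. Counts of miR-205-5p in these 6 libraries were 8 to 18.

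Some markers of other cell types moved with the 5 members, namely 3 of 5 fibroblast and smooth muscle miRNAs (all of the miR-199 group), 1 of 2 endothelial ones (miR-126-3p, which made the division) and 1 of 7 blood cell ones (miR-451a), each higher in all 9 libraries with more miR-126 than in all 6 with less. None of the 3 muscle or 4 neural and glial miRNAs that passed the filter was. This split was found for 2.67% of all 562 miRNAs, and 3 of the 7 blood cell miRNAs were among those tested. As miR-199b-5p and miR-199a-3p were already among the miRNAs most like the family mean, their split is no separate evidence. The summed level of 5 fibroblast and smooth muscle miRNAs was 254 to 593 CPM in the 9 libraries and 140 to 249 CPM in the 6, and that of the 2 endothelial ones 14.04 to 50.8 against 4.01 to 6.64 CPM. The sum of 7 blood cell miRNAs was 8.33 to 24.1 against 4.54 to 5.49 CPM, with miR-223-3p and miR-486-5p at 3 counts or fewer in every library. Muscle miRNAs (5 in the files) tended to be lower in the 9, with 1.95 to 33.7 against 20.1 to 46.4 CPM, and miR-206 and miR-208b-3p were at 3 counts or fewer in every library. The part of other cell types in the levels of the epithelial miRNAs was not tested. In bulk libraries, a change in the number of cells of a type and a change in the RNA of each cell cannot be told apart.

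Of 10 other miRNAs of epithelial cells, 9 were tested and 2 of these shared the split, beside 2.67% of all 562 miRNAs. The summed level of the 10 did not share it. The sum of 10 such miRNAs (the miR-183 cluster, miR-375-3p, miR-192, miR-194, miR-215, miR-31, miR-224 and miR-452) was 507 to 792 CPM in the 9 libraries and 508 to 786 CPM in the 6, and only miR-375-3p and miR-452-5p were higher in every library with more miR-126. Of the 9 that were tested, 2 rose in HIF1α/HIF2α-KO cells against the hypoxic control, namely hsa-miR-182-5p (log2 fold change 0.64, SE 0.168, adjusted p = 0.0394 in edgeR) and hsa-miR-192-5p (0.56, SE 0.134, adjusted p = 0.0241 in edgeR). In this comparison 33 of 562 miRNAs (5.87%) were called by edgeR, 7 of them higher. The 2 were named after their values were seen. None of the 9 passed in the other 4 comparisons.

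The division by miR-126 was also added to the edgeR model. As it was drawn from these libraries and follows the levels of the members themselves, the values are given as a description. For HIF1α/HIF2α-KO cells against the hypoxic control the log2 fold changes were then -1.38 for miR-429, -1.22 for miR-205-5p, -1.14 for miR-141-3p, -1.003 for miR-200a-3p, -0.77 for miR-200b-3p and -0.58 for miR-200c-3p. In HIF2α-KO against HIF1α-KO cells, the 5 covarying members had values of 0.22 to 0.62 without the division and of -0.60 to -0.31 with it, and in hypoxic against normoxic controls -0.90 to -0.61 without and 0.03 to 0.47 with it. The signs of these members in those comparisons thus depended on whether the division was in the model.

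Among the 9 libraries with more miR-126, the hypoxic control was replicate 1 alone, which had the most miR-205-5p and miR-200a-3p of all 15, beside 2 HIF1α/HIF2α-KO libraries. Fitted on these 9, the log2 fold changes were -1.79 for miR-200a-3p, -1.75 for miR-205-5p, -1.35 for miR-200b-3p and -0.48 for miR-200c-3p. On the 6 libraries with less, in which 1 HIF1α/HIF2α-KO library stood against 2 hypoxic controls, they were 0.26, 0.16, -0.16 and -0.64. With a lone library on one side of each, these are values without a test.

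The composition of the family differed between the libraries with more and with less miR-126. miR-200c-3p made up 48.8% to 68.5% of the counts of the 5 miR-200 miRNAs in the libraries with more miR-126 and 70.0% to 87.6% in those with less. In replicate 1 of the hypoxic control it was 49.6% (exact binomial 95% interval 46.6% to 52.6%), and in replicate 2 it was 87.6% (85.7% to 89.3%), intervals that cover counting error only. The share of miR-141-3p was 5.01% to 11.3% against 1.68% to 5.34%, and that of miR-200a-3p 8.56% to 17.8% against 2.43% to 8.48%.

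Summed by seed, the AAUACUG miRNAs were at 60.6 ± 5.66 CPM (SD, n = 3) in the normoxic control, 58.1 ± 13.1 in the hypoxic control, 45.7 ± 5.86 in HIF1α-KO, 59.7 ± 11.2 in HIF2α-KO and 39.7 ± 5.11 in HIF1α/HIF2α-KO cells, mostly as miR-200c-3p. The AACACUG pair was at 17.6 ± 6.98, 10.9 ± 14.5, 9.55 ± 9.17, 10.9 ± 7.96 and 6.27 ± 3.38 CPM in the same order. The first sum had its lowest means in the 2 groups without HIF1α, as miR-200c-3p did, and the second ranged from 1.81 to 27.6 CPM over the libraries of the 4 hypoxic groups.

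The opposite arms of the hairpins were scarce and none passed the filter. Over the 15 libraries, miR-200a-5p had 61 counts, miR-200b-5p 13, miR-200c-5p 12 and miR-141-5p 24, with at most 10 in a library. The main arm outnumbered the opposite arm 732-fold for miR-200c, 145-fold for miR-200b, 34.9-fold for miR-141 and 21.2-fold for miR-200a. In the edgeR fit without a filter, which tested all 1707 miRNAs, the 4 opposite arms had adjusted p-values of 0.768 or more in the 5 comparisons, with SEs of 0.704 to 1.86 on the log2 scale.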

How the data were processed

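The deposited data are whole-number counts per mature miRNA in 15 miRNA-Seq libraries, which the authors supplied without normalization. The submitters' processing notes name HISAT2, StringTie and DESeq2 with no role, and the supplementary methods name a quantile normalization, which had not been applied to these counts. The genome build and the counting of near-identical reads are not given in the sources used here.

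Libraries were grouped by genotype, oxygen and replicate number in their labels. R 4.3.3 with edgeR 4.0.16 was used for the tests: filterByExpr kept 562 miRNAs, TMM factors were used, and 1 quasi-likelihood fit of all 15 libraries with a mean per group gave each contrast and the test among the 5 groups, adjusted over all 562 miRNAs at a threshold of 0.05. No replicates were copies (smallest chi-square per degree of freedom 49.3). Depth was 10360337 to 22496373 counts; the floor of 3 counts and all intervals on counts cover counting error only. Descriptions used log2(TMM-scaled CPM + 0.5). Two-sided exact permutation tests used scipy 1.17.1.

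Alternatives were DESeq2 size factors, total counts, limma 3.58.1 on quantile-normalized log2(CPM + 1), DESeq2 1.42.0, a robust spread, no filter, a minimum of 10 counts in each library of a comparison, a fit of only those libraries, the replicate number as a block and each library left out in turn. The division by miR-126 as a covariate, and fits within it, were added after the data were seen. The code was tested on simulated data.

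The named miRNAs are the members in every comparison, the opposite arms of their hairpins, and the 5 others closest to the family mean in within-group deviations. miR-375-3p, miR-451a, miR-452-5p, miR-182-5p, miR-192-5p and the marker miRNAs at 3 counts or fewer were named after their values were seen. The members and lists were chosen with earlier results of these data known. Of the listed markers, miR-122-5p, miR-214-3p, miR-338-3p and miR-499a-5p, and of the opposite arms and relatives miR-205-3p, miR-203a-5p and miR-203b, were not analysed here.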

Additional observations from a re-analysis of the deposited data

How the results depend on the processing

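Of the 6 members, 0 were called in every comparison under the size factors of DESeq2, total counts and each library left out in turn (0 to 0). A minimum of 10 counts per library left 4 or 5 members to test, and a fit of only the groups compared left 5 or 6. Of these, 0 were called. In HIF1α/HIF2α-KO cells, 36 of 562 miRNAs were called with the size factors and 50 of 562 with total counts. The minimum gave 35 of 443 and the fit of only those groups 26 of 520. In HIF2α-KO cells against the hypoxic control each of these fits called 0 miRNAs. There, 0 members called says nothing about the members. In HIF1α/HIF2α-KO cells the number called was 1, miR-200c-3p, with limma on quantile-normalized values, with DESeq2 and with the robust spread. With the miR-126 covariate the adjusted p of miR-200c-3p was 0.0401 in edgeR. As this covariate was drawn from these libraries, the value is a description and is not counted as a call. Of all 562 miRNAs, limma called 34 in this comparison, DESeq2 60 and the robust spread 41, beside 33 in the main edgeR fit. Among the 5 groups the number of members called was 1, miR-200c-3p, with DESeq2, where 81 of 562 miRNAs were called. It was 3 with no filter on low counts, where miR-200a-3p, miR-205-5p and miR-141-3p had adjusted p-values of 0.00470, 0.00591 and 0.0227 in edgeR. That fit called 95 of 1707 miRNAs. Its SEs in HIF1α/HIF2α-KO cells were 0.316 for miR-205-5p, 0.317 for miR-200a-3p and 0.255 for miR-200c-3p. In the main fit they were 1.29, 0.987 and 0.156, and the cause was not tested. Deviations of libraries with the same replicate number correlated at -0.64 to 0.61, so that no pairing common to the comparisons was seen. In HIF2α-KO cells against the hypoxic control the values were 0.50, 0.19 and 0.095. The sources used here do not say whether the numbers pair the libraries. With the replicate block 0 members were called. It gave opposite signs for miR-200b-3p in HIF1α-KO (0.054), miR-200a-3p in HIF2α-KO (0.12) and miR-205-5p in HIF1α/HIF2α-KO cells (0.074).

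Other signs that turned belonged to log2 fold changes that had not passed the test, and the cause was not tested. In HIF2α-KO cells against the hypoxic control these were 0.0046 (DESeq2 size factors), 0.025 (no filter), 0.0027 (minimum of 10 counts) and 0.44 (limma) for miR-200a-3p, -0.0021 for miR-429 with DESeq2, -0.0082 (no filter) and -0.0028 (limma) for miR-200c-3p, and, with total counts, -0.018 for miR-141-3p, -0.071 for miR-200b-3p, -0.10 for miR-200c-3p and -0.039 for miR-429. With limma, HIF1α-KO cells gave 0.17 for miR-141-3p, 0.22 for miR-200a-3p, 0.16 for miR-200b-3p and 0.046 for miR-205-5p, and HIF1α/HIF2α-KO cells 0.10 for miR-205-5p.

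With the miR-126 covariate, HIF1α-KO cells gave 0.13, 0.21 and 0.18 for miR-141-3p, miR-200a-3p and miR-200b-3p. HIF2α-KO cells gave -0.43 for miR-141-3p, -0.22 for miR-200b-3p, -0.0032 for miR-200c-3p, -0.36 for miR-205-5p and -0.54 for miR-429. HIF2α-KO against HIF1α-KO cells gave -0.57, -0.60, -0.40, -0.31 and -0.38, and hypoxic against normoxic controls 0.23, 0.12, 0.025, 0.47 and 0.17, for miR-141-3p, miR-200a-3p, miR-200b-3p, miR-205-5p and miR-429.

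With each library left out in turn, the log2 fold changes against the hypoxic control ranged, in HIF1α-KO cells, from -1.22 to 1.73 for miR-141-3p, -1.30 to 2.00 for miR-200a-3p, -0.50 to 1.12 for miR-200b-3p, -2.70 to 2.82 for miR-205-5p and -0.91 to 1.23 for miR-429. In HIF1α/HIF2α-KO cells they ranged from -1.16 to 1.13, -1.25 to 1.44, -0.91 to 0.72, -1.28 to 2.42 and -1.41 to 0.93 for the same miRNAs. In HIF2α-KO cells they ranged from -0.52 to 1.93, -0.64 to 2.19, -0.31 to 1.30, -0.37 to 3.40 and -0.45 to 1.71, and from -0.10 to 0.11 for miR-200c-3p. For HIF2α-KO against HIF1α-KO cells the ranges were -0.45 to 1.32, -0.45 to 1.27, -0.17 to 0.52, -0.060 to 2.94 and -0.078 to 0.94, and for the hypoxic against the normoxic control, where no sign turned, -2.57 to -0.27, -2.93 to -0.24, -1.85 to -0.23, -3.83 to -0.13 and -2.52 to -0.36. The highest values against the hypoxic control, miR-200c-3p apart, were those without its replicate 1. The between-group share of the sum of squares ranged from 10.8% to 40.6% for miR-141-3p, 11.9% to 45.6% for miR-200a-3p, 17.2% to 57.6% for miR-200b-3p, 72.4% to 82.1% for miR-200c-3p, 12.4% to 41.0% for miR-205-5p and 25.05% to 56.0% for miR-429. In CPM of total counts it was 55.8% for miR-200c-3p. With 3 libraries per group, a floor of up to 0.290 CPM and 1 to 25 counts of miR-429, modest differences in the covarying members were not detectable.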
